A study of Mus musculus with 2 samples.

Results

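The genes described here are the 2 ligands of the macrophage growth factor receptor, the receptor itself and 7 markers by which tissue macrophages are recognised. They are Csf1, Il34, Csf1r, Adgre1, Lyz2, Cd68, Mrc1, Gpnmb, Trem2 and Cd163. These 10 genes were chosen by their values in the same libraries, because Csf1r differed far less between the libraries than other macrophage markers did, so their differences are given as a description with no test. Of the 10, 8 were read among the 20002 genes of the table, and expression values of Trem2 and Cd163 were not analysed here. RNA-seq of whole mouse kidney was compared between 1 control library and 1 library labelled CKO. Mice of the CKO group received AAV9, an adeno-associated virus, carrying an shRNA against Regnase-2 (gene Zc3h12b) by tail vein at 11 weeks of age. Control mice received AAV9 without this shRNA, which the methods describe once as an empty vector and once as a control shRNA. The labels name no other treatment for either group, and C57BL/6J is the strain that the methods name for purchased mice. The RNA-seq methods place the left kidneys at 14 weeks of age, and the AAV9 methods place harvest at 16 weeks. The CKO label refers to the proximal tubule, but the model is a knockdown by a virus given into the circulation, with no Cre driver described. The AAV9 methods state that the virus enters proximal tubule cells by preference. Whether a library came from 1 mouse or from a pool is not given in the sources used here.

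CSF1, also called macrophage colony-stimulating factor, and IL-34 are secreted proteins that bind the same receptor tyrosine kinase, CSF1R, on monocytes and macrophages. Signalling through CSF1R sustains the survival, proliferation and differentiation of these cells. In the kidney, a network of resident macrophages surrounds the tubules, and injured tubular epithelium is a known source of both ligands.

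The values were taken as reads plus a constant in each library, an inference from the lowest value of each column, which was 35 for the control and 51 for CKO. After subtraction of 34 and 50, the totals were 38851231 and 43588721 reads, and the medians per gene were 284 and 513.5. Before ratios were taken, CKO reads were scaled by 0.667, the median gene ratio of control to CKO. Zc3h12b, the gene targeted by the shRNA, had 47 reads in the control library against 59 in that labelled CKO. The log2 ratio of -0.25 had an exact binomial (Clopper-Pearson) interval at 95% from -0.83 to 0.33, so that at this depth no change of its mRNA could be detected. The target gene therefore does not check the labels. The methods state that knockdown was assessed by immunofluorescence, which was not analysed here, and each direction below is that of the library labelled CKO against the control library. All intervals cover counting error only and hold as far as the recovered values are reads, and no difference has a replicate check. Markers of kidney tubules were abundant in both libraries: Umod, made in the thick ascending limb, had 90047 control reads against 187056 in the CKO library.

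All 8 members that were read had at least 10 scaled reads in 1 library, Gpnmb through the library labelled CKO alone. Of these, 6 were higher by 2-fold or more and 0 lower by as much in the library labelled CKO, where 13.4% of the 17469 genes with that many reads were higher by 2-fold or more and 5.35% lower by as much. Since the members were chosen on this comparison, nothing is read from that count. Their log2 ratios ran from 0.51 for Csf1r to 3.66 for Lyz2, with a median of 2.37, against a median of 0.022 over all 17469 genes. In bulk tissue, more cells of a type and more RNA per cell cannot be told apart, and this holds for every marker below.

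Csf1, the ligand that circulates and is also displayed on cell surfaces, lies at chr3:107741048-107760469 on the minus strand of GRCm38. It had 163 reads in the control library against 2383 in that labelled CKO. Scaled, this made Csf1 9.75-fold higher, with a 95% interval of 8.31 to 11.5, at rank 117 from the top of the 17469 genes. The other ligand moved much less. Il34, which is made in tubular epithelium, skin and brain and lies at chr8:110741829-110805924 on the minus strand, had 493 and 1320 reads. It was 1.78-fold higher, with an interval of 1.61 to 1.98. Per kilobase of the longest transcript, the level of Il34 was 274 reads against 39.0 for Csf1 in the control library. In the library labelled CKO the levels were 490 and 380 scaled reads per kilobase. By this measure the order of the ligands was kept while the gap between them closed to a large extent. By reads without division by length, Csf1 passed Il34 in that library, with 2383 against 1320. Exons of Il34 overlap those of an antisense gene, Gm15895, by up to 75 bases. Gm15895 had 223 and 614 reads, with a log2 ratio of 0.87, close to the 0.83 of Il34. Its control level of 305 reads per kilobase was above the 274 of Il34. The kit marked strand, but the strand setting of the counting is not given in the sources used here, so reads of the overlapping bases cannot be assigned to a strand.

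Csf1r, the receptor of both ligands, lies at chr18:61100598-61132149 on the plus strand. It had 2244 reads in the control library against 4803 in that labelled CKO. The scaled difference was 1.43-fold, with an interval of 1.36 to 1.5. The receptor was thus above the control beyond counting error, by less than any other member that was read. Its log2 ratio of 0.51 became 0.93 when the library totals were set equal and 1.09 with the values as deposited, where Csf1r passed 2-fold. Exons of Csf1r overlap by up to 873 bases those of Hmgxb3, a protein-coding gene on the opposite strand. Hmgxb3 had 1114 and 1532 reads, and its control level of 217 reads per kilobase was below the 477 of Csf1r. Its log2 ratio of -0.13 turned to 0.29 with equal totals and to 0.46 when the deposited values were used directly. How many of the reads given to Csf1r came from the shared bases was not tested. Pdgfrb, a receptor gene of pericytes and fibroblasts, lies 15536 bases from Csf1r on the same strand and had 1513 and 3170 reads, a log2 ratio of 0.48. Hmgxb3, Gm15895 and Lyz1 (below) were named for their position or sequence after the values were seen.

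Adgre1 encodes F4/80, the surface protein most used to stain mouse macrophages, and lies at chr17:57358691-57483527 on the plus strand. It had 87 reads in the control library against 770 in that labelled CKO, which was 5.90-fold higher (95% interval 4.72 to 7.45). Lyz2, which encodes the lysozyme of macrophages and other myeloid cells, lies at chr10:117277331-117282321 on the minus strand. It had 518 and 9836 reads and was 12.7-fold higher (95% interval 11.6 to 13.9). Among the members, Lyz2 had the largest difference and the highest level in the library labelled CKO, 4983 scaled reads per kilobase. Its neighbour Lyz1, a closely similar lysozyme gene 5475 bases away, had 4 and 152 reads, and reads of near-identical copies are uncertain. The reads given to Lyz1 were few beside those given to Lyz2 in both libraries, and how reads were divided between the copies was not tested. Cd68, a glycoprotein of late endosomes and lysosomes, lies at chr11:69664213-69666153 on the minus strand. It had 70 and 479 reads and was 4.56-fold higher (95% interval 3.54 to 5.95).

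Mrc1 encodes the mannose receptor CD206, an endocytic receptor often used to mark alternatively activated and resident macrophages, and lies at chr2:14229392-14332057 on the plus strand. It had 135 reads in the control library against 1161 in that labelled CKO, and was 5.73-fold higher (95% interval 4.79 to 6.90). Gpnmb, a transmembrane glycoprotein of phagocytes with a high lysosomal load, lies at chr6:49036546-49070929 on the plus strand. It had 6 and 48 reads and was 5.33-fold higher (95% interval 2.28 to 15.3). With so few control reads the fold of Gpnmb is loosely bounded, and its log2 ratio of 2.24 became 0.71 when the values as deposited were scaled by the median ratio, below 2-fold.

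**Figure D1:**
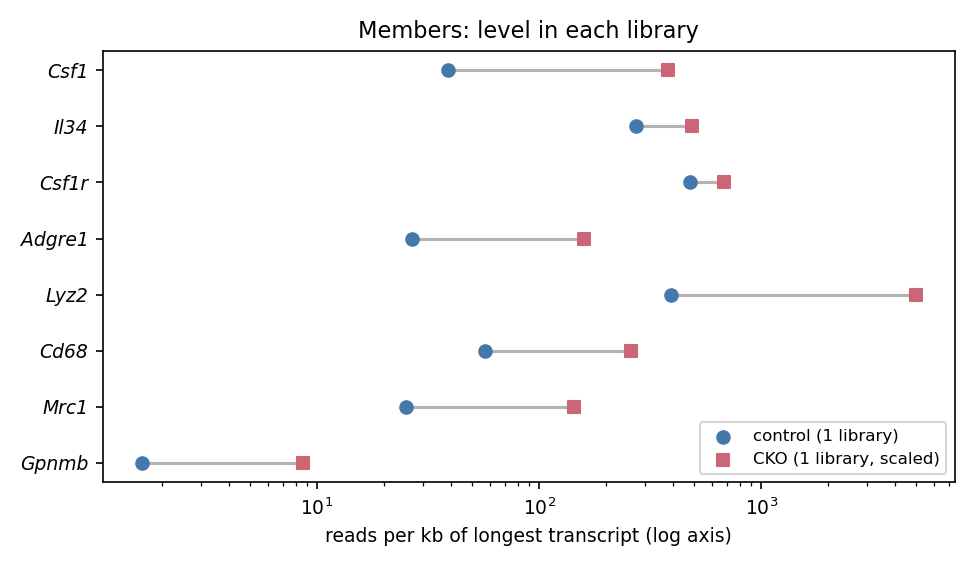
Level of each member that was read, in reads per kilobase of the longest transcript on a log axis, for the control library (circles) and for that labelled CKO after scaling (squares). Csf1r had the highest control level, 477, and Lyz2 the highest CKO level, 4983, while Gpnmb was the lowest in both, at 1.62 and 8.65.

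By level per kilobase in the control library, the members ranked Csf1r (477), Lyz2 (394), Il34 (274), Cd68 (56.9), Csf1 (39.0), Adgre1 (26.9), Mrc1 (25.1) and Gpnmb (1.62). Csf1r, Lyz2 and Il34 were above, and the other 5 below, the median of 163 reads per kilobase over the genes that passed the minimum of reads and had a length. In the library labelled CKO, Lyz2 stood first at 4983 scaled reads per kilobase and Csf1r second at 681. Csf1 passed Cd68, with 380 against 260, and Adgre1 and Mrc1 were at 159 and 144. Csf1r had a higher level than 73.6% of the 16210 genes with a length in the control library and than 82.6% in the library labelled CKO. For Lyz2 these shares were 69.6% and 98.2%, and for Csf1 they were 25.9% and 69.7%.

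**Figure D2:**
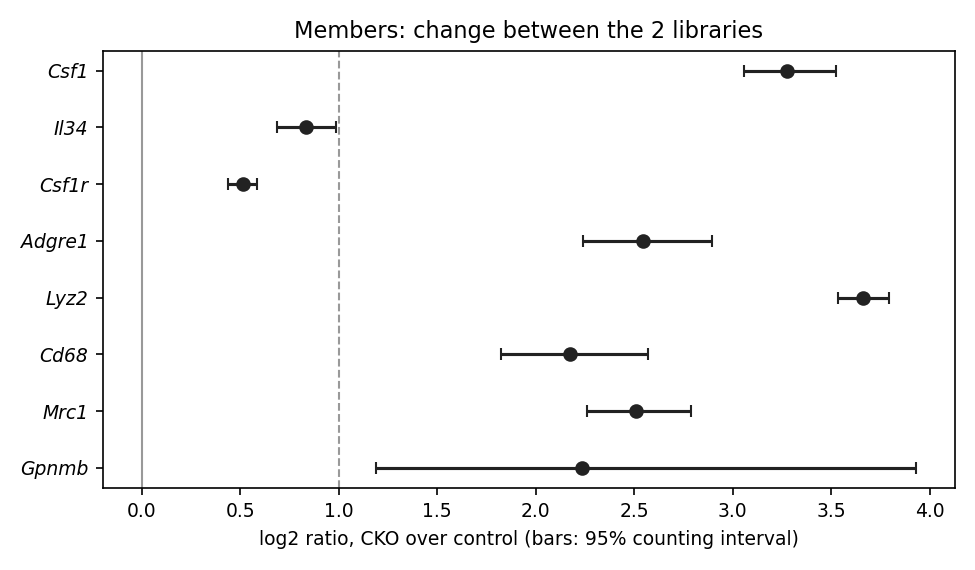
Log2 ratio of each member, library labelled CKO over control, with bars for the 95% Clopper-Pearson interval of counting error. The plotted ratio has 1 added to each value and the interval does not, which matters for Gpnmb. The solid line marks no difference and the dashed line 2-fold. Csf1r (0.51) and Il34 (0.83) lie between the lines, and the other 6 members lie to the right of both.

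By difference, the members fell into 3 groups. Lyz2 and Csf1 had the highest folds, and their intervals met closely at 11.6 and 11.5 without overlapping. Adgre1, Mrc1, Gpnmb and Cd68 followed, with log2 ratios of 2.55, 2.51, 2.24 and 2.17 and overlapping intervals, so their order is not resolved at this depth. The interval of Gpnmb was wide enough to reach those of Lyz2 and Csf1 as well. Il34 and Csf1r came last, and their intervals did not overlap each other. In the values as deposited, Gpnmb fell below Il34, with log2 ratios of 1.27 and 1.38. The same held when these values were scaled by the median ratio, at 0.71 and 0.80.

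A ratio of 2 genes inside a library does not depend on the scaling between libraries, but it does depend on the constant subtracted. In the values as deposited, the log2 ratios of Csf1r and Gpnmb were 1.09 and 1.27, a far smaller gap than the -1.90 given below. For each read of Adgre1 there were 25.8 reads of Csf1r in the control library against 6.24 in that labelled CKO. On the log2 scale this is a difference of -2.05, with a 95% interval of counting error from -2.38 to -1.72. Against Mrc1 the difference was -2.01, against Gpnmb -1.90 (95% interval -3.13 to -0.68) and against Cd68 -1.68. The largest was against Lyz2, at -3.15, where Csf1r went from 4.33 reads for each read of Lyz2 to 0.488. Relative to its own ligands, the receptor went from 13.8 to 2.02 reads for each read of Csf1, a difference of -2.77, and from 4.55 to 3.64 for each read of Il34, a difference of -0.32. Csf1r was thus lower relative to each of the other 7 members that were read. This is the pattern by which the members were chosen, so the values describe its size and do not support it.

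**Figure D3:**
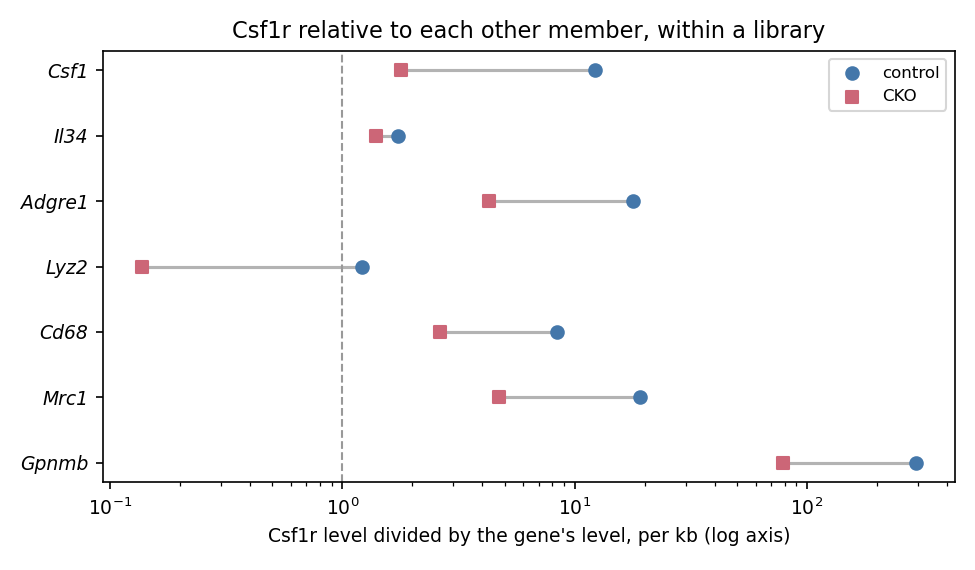
Level of Csf1r divided by the level of each other member within the same library, per kilobase on a log axis, in the control library (circles) and the library labelled CKO (squares). The dashed line marks equal levels. Against Adgre1 the quotient was 17.8 for the control and 4.30 for CKO, and only against Lyz2 did it cross the line, from 1.21 to 0.137.

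Promoters of the members were searched for GAGGAA, a core bound by PU.1, the lineage factor of macrophages encoded by Spi1, on both strands. Promoter sequences of 300 bases, with 250 before and 50 after the start site, came from RefSeq on GRCm38.p6, and 7 of the 10 members matched an entry. Csf1r, Il34 and Adgre1 are named only. The core was found in the promoters of Mrc1, Cd68 and Trem2, 3 of 7, against 28.3% of 32851 promoters of the same length. A longer form that contains it, GAGGAAGT, was in 0 of 7 and in 3.2% of all, and the E-box CACGTG, read by MITF and TFE factors, was in 0 of 7 and in 7.15% of all. Of the 27 promoters matched for 23 of the pan-macrophage markers described below, 17 held the core, 6 the longer form and 0 the E-box. The windows below surround the matches of the members with expression values, 5′ to 3′ on the strand of the gene, with the core in capitals, where TTCCTC is the core read on the opposite strand. Each is named by the position of the first base of the core from the start site. They are shown because Mrc1 and Cd68 were each more than 4-fold higher, and the first pair of Mrc1 windows overlaps. Lyz2, Csf1 and Gpnmb were also more than 4-fold higher, and their matched promoters did not hold the core. The log2 ratio of Cd68 was 1.76, below 4-fold, when the values as deposited were scaled by the median ratio. The Mrc1 windows, on the plus strand, lie at chr2:14229222-14229251, chr2:14229235-14229264 and chr2:14229367-14229396. The Cd68 windows, on the minus strand, lie at chr11:69666378-69666407, upstream of the start, and chr11:69666124-69666153, just downstream of it.
Mrc1 at -180: ctcctacacatgTTCCTCtctccccttcct
Mrc1 at -167: tcctctctccccTTCCTCctgtgccttagc
Mrc1 at -35: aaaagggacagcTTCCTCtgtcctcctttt
Cd68 at -225: tttcttaccaatGAGGAAagggcttcccat
Cd68 at 30: gaggcttttcatTTCCTCttccaagagaag
A match of these letters is a description of the sequence and not a binding site. Spi1 itself had 56 reads in the control library against 336 in that labelled CKO, a log2 ratio of 1.98.

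Abundance within the lists below is by reads, not per kilobase, and holds in both libraries unless 1 is named. Like Gpnmb, some list genes reached the minimum through the library labelled CKO alone, which only genes higher there can do. Beside the counts past 2-fold stand the shares over all 17469 genes, 13.4% higher and 5.35% lower. A list of 30 pan-macrophage markers that does not hold the members was read in the same comparison. Like the members, it was chosen with earlier results of these data known. All 30 had at least 10 scaled reads in 1 library, and 29 were higher by 2-fold or more and 0 lower by as much in the library labelled CKO. Their median log2 ratio was 2.7, against 2.51 for the 5 marker members that were read, without Csf1r and the ligands. Since both sets were chosen with these data known, nothing is read from this likeness. The summed reads of the 30 markers, here and below before scaling, went from 5784 to 38118, a scaled fold of 4.39. Ms4a7, a tetraspan membrane protein of macrophages, was the highest at 4.33 (95% interval 3.40 to 6.01), with 6 and 210 reads. Ctss, the lysosomal protease cathepsin S, had the most reads in the library labelled CKO but not in the control, 4495 and 264, with a log2 ratio of 3.50. With the constants left in and the same median scaling, Ctss was the highest at 3.35 and Ms4a7 was at 2.10. The lowest was Mertk, a receptor for the uptake of apoptotic cells. It had 1597 and 1921 reads, with a log2 ratio of -0.32, which turned to 0.10 with equal totals and to 0.27 in the deposited values.

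Set among these markers, Csf1r had a lower log2 ratio than 29 of the 30, with Mertk as the exception. Csf1r was chosen for this small difference, so the count describes the choice and supports nothing. In the control library its level per kilobase was above that of 30 of the 30 markers, 477 against a median of 45.0. In the library labelled CKO it was above 25 of them, 681 against a median of 274. Csf1r and Mertk thus paired a high control level with a small difference. Il34, a ligand and not a macrophage marker, was at 274 reads per kilobase and 0.83. Sirpa, a receptor for CD47 named after its values were seen, was at 253 and 1.21. Sirpa was thus past 2-fold and did not share the small difference. Which cells of the whole kidney gave the reads of these genes was not tested. A high control level did not go with a small difference for every marker. Lyz2, at 394 reads per kilobase in the control library, had the largest difference among the members. Other pan-macrophage markers, also named after their values were seen, had control levels near that of Sirpa and large differences. They were C1qa (248 and 2.99), C1qb (234 and 2.67), C1qc (234 and 2.87), Tyrobp (206 and 2.81) and Ctss (195 and 3.50).

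**Figure D4:**
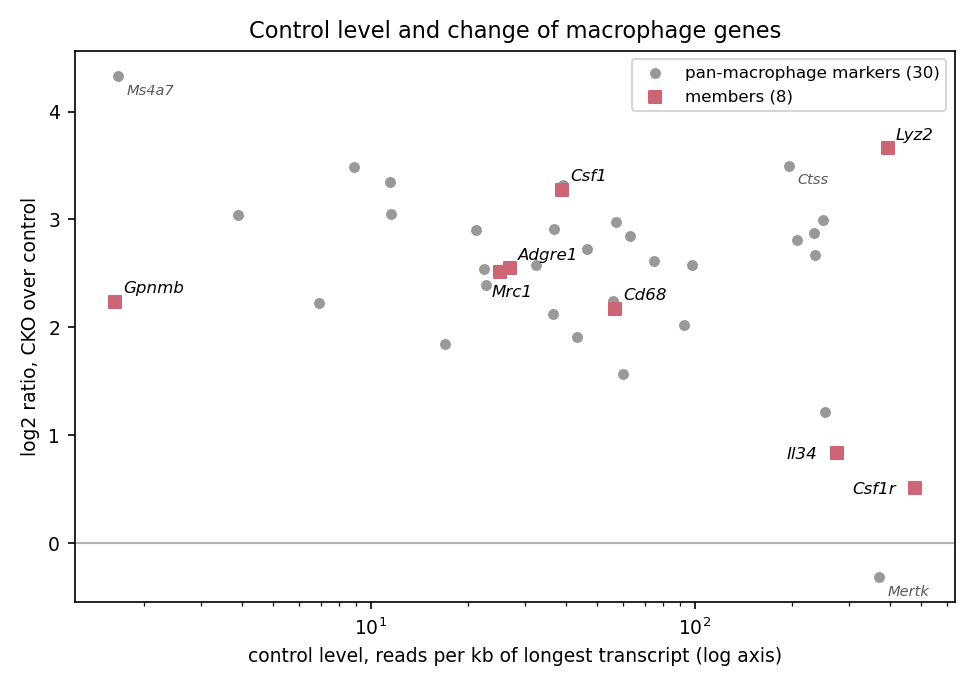
Control level in reads per kilobase of the longest transcript (log axis) against the log2 ratio of the library labelled CKO over control, for the 30 pan-macrophage markers (circles) and the 8 members that were read (squares). Csf1r and Mertk sit at the lower right with high control levels and log2 ratios of 0.51 and -0.32, and Lyz2 sits at the upper right at 3.66.

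Genes that act below CSF1R were read from a list of 28. Of these, 12 were higher by 2-fold or more and 0 lower by as much, with a median log2 ratio of 0.58, which was 0.999 with equal totals and 0.39 with the constants left in the values and the same median scaling. With a minimum of 50 scaled reads, 10 of 26 were at least 2-fold higher. Tyrobp, the adaptor protein DAP12 of myeloid receptors, was the highest at 2.81, with 123 and 1307 reads. The lowest was Sos1, a guanine nucleotide exchange factor of Ras, at -0.37, which turned to 0.053 with equal totals and 0.23 in the deposited values. Stat3, a transcription factor active in most cell types, had 4579 and 9106 reads, the most in the library labelled CKO but not in the control, and a log2 ratio of 0.41. Many genes of this list are expressed widely in the kidney, so their reads are not those of macrophages alone.

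Besides CSF1R, IL-34 can bind syndecan-1 and the phosphatase PTPRZ1. Sdc1, the gene of syndecan-1, had 436 and 1444 reads, with a log2 ratio of 1.14, above that of Csf1r, and Ptprz1 was not analysed here. Among other myeloid growth factors and their receptors, 9 of the 12 genes listed were read, and 6 were higher by 2-fold or more and 0 lower by as much, with a median of 1.33. With the constants left in, 4 passed 2-fold and the median was 0.94. Flt3, a receptor of dendritic cell precursors and a relative of Csf1r, was the highest at 2.56, from 8 to 78 reads. Kitl, which encodes stem cell factor, was the lowest at 0.46 and also the most abundant, with 601 and 1237 reads. Csf2, Csf3 and Il3 were not analysed here.

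Of 18 macrophage transcription factors, 5 were higher by 2-fold or more and 0 lower by as much, with a median of 0.35, and with equal totals 8 were higher by 2-fold. Runx1, a factor of blood cell development, was the highest at 4.06, with 20 and 523 reads. Nr1h3, the liver X receptor alpha, was the lowest at -0.91. Maf, which is also expressed in renal tubules, had the most reads, 8986 and 7822, and a log2 ratio of -0.79. The list thus held genes of both directions, unlike the members.

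The markers of macrophage phenotype were described by lists next to Mrc1 and Gpnmb. For alternative activation, 11 of 18 genes were read and 9 were at least 2-fold higher, with a median of 2.43. Some of these had few control reads and passed the minimum through the library labelled CKO alone. With a minimum of 50 scaled reads, 6 of 8 were at least 2-fold higher, with a median of 2.22. With the constants left in, 5 passed 2-fold and the median was 0.94. Egr2, a zinc finger factor, was the highest at 4.25, and Tgm2, the most abundant with 8590 and 13929 reads, was the lowest at 0.11. For classical activation, 12 of the 13 genes read passed the minimum and 8 were at least 2-fold higher, with a median of 1.76. With a minimum of 50 scaled reads, 7 of 9 were at least 2-fold higher. With the constants left in, 7 of the same 12 passed 2-fold and their median was 1.21. Ptgs2, which encodes cyclooxygenase-2, was the highest at 3.29, Nos2, which encodes inducible nitric oxide synthase, the lowest at 0.33, and Irf1 had the most reads, 465 and 2263. Most genes read from each list were thus higher. Retnla and Il10 of the first list and Tnf, Il6 and Acod1 of the second were among those not analysed here.

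Of the genes linked to TREM2 in lipid-handling macrophages, 21 of 22 were read, and 13 were higher by 2-fold or more and 2 lower by as much, with a median of 1.41. In the deposited values without scaling 0 were lower by 2-fold. Clec7a, the receptor dectin-1, was the highest at 4.24, and Cd36, a fatty acid transporter that the kidney expresses outside macrophages as well, was the lowest at -1.47. Spp1 (osteopontin), made by injured tubules as well as by macrophages, had 15360 and 412220 reads, the most of the list in the library labelled CKO but not in the control. In a list of 26 lysosome genes, the compartment in which Cd68 and Gpnmb reside, 1 gene was higher by 2-fold or more and 1 lower by as much. The list summed to 320565 control reads, against 70 for Cd68 and 6 for Gpnmb. A difference confined to macrophages could therefore be hidden in it, and the lysosomes of macrophages were not tested. The median of the list, -0.16, turned to 0.25 with equal totals and 0.42 in the deposited values, where 3 and 4 genes were higher by 2-fold. Ctsk (cathepsin K) was the highest at 1.77 and Gusb (beta-glucuronidase) the lowest at -2.30, and Psap (prosaposin) had the most reads, 49504 and 55091.

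Markers of resident perivascular macrophages and of monocytes were set beside the members. Of 16 resident markers, 9 passed the minimum, and 3 were higher by 2-fold or more and 0 lower by as much, with a median of 0.72, and with equal totals 5 passed 2-fold and the median was 1.14. Siglec1, a sialic acid receptor of tissue macrophages, was the highest at 5.46, from 10 to 725 reads, and Cbr2 the lowest at -0.32, which turned to 0.097 with equal totals and 0.32 in the deposited values. Gas6, a ligand of Mertk, had the most reads, 9153 and 17311, and a log2 ratio of 0.33. Lyve1, Timd4 and Vsig4 were among the 6 that were not analysed here. Of 15 monocyte markers, 12 were read, and 9 were higher by 2-fold or more and 1 lower by as much, with a median of 2.09. Some of these also passed the minimum through the library labelled CKO alone. With a minimum of 50 scaled reads, 7 of 9 were at least 2-fold higher. With the constants left in, 7 passed 2-fold and the median was 1.47. Ms4a4c was the highest at 4.16, and Ace, which the proximal tubule brush border expresses strongly, was the lowest at -1.85, with 10069 and 4188 reads, the most of the list in the control library but not in that labelled CKO.

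**Figure D5:**
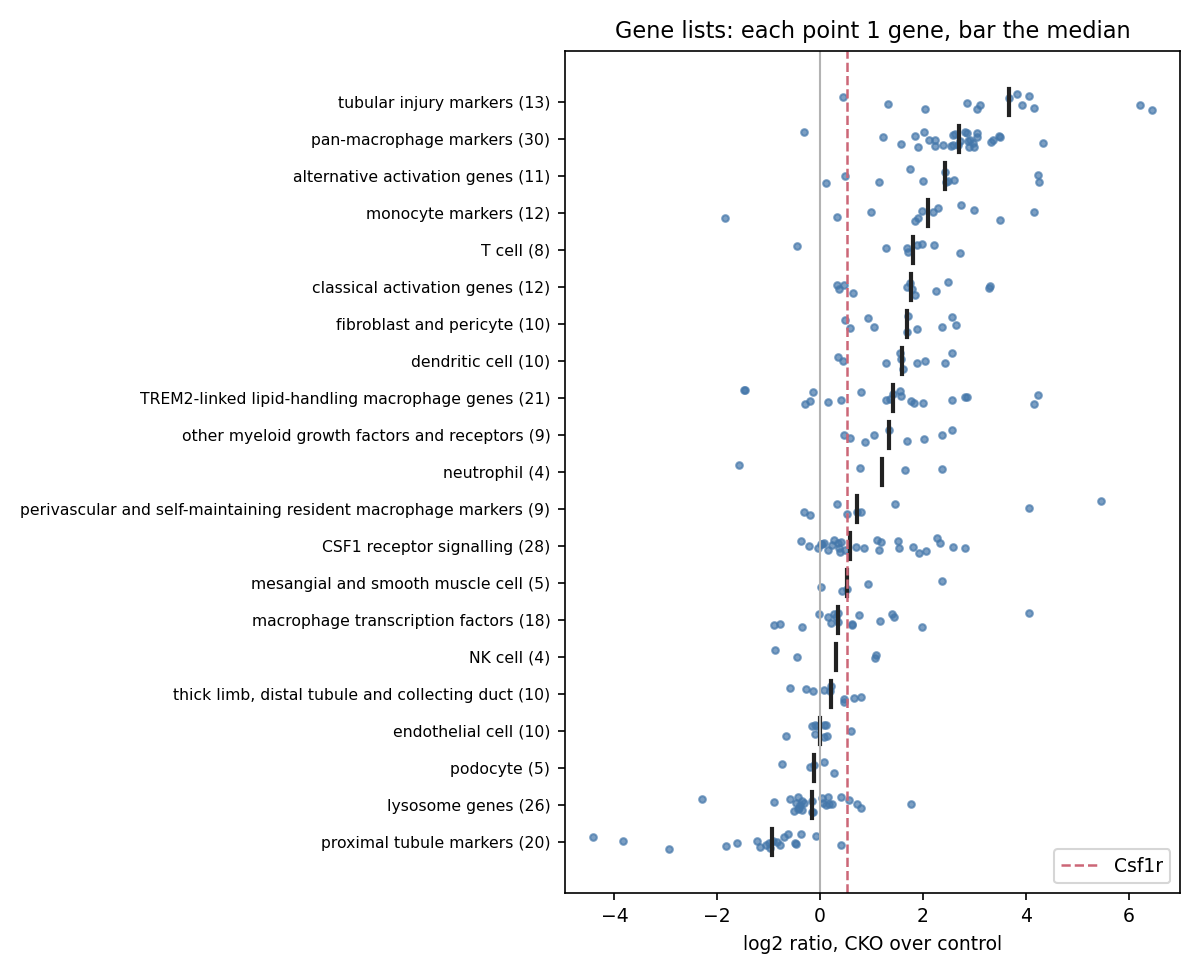
Log2 ratio, library labelled CKO over control, of every gene with at least 10 scaled reads in 1 library in each list of at least 4 such genes (points, with a vertical jitter), with the median of the list as a bar and the number of genes in parentheses. The dashed line marks Csf1r at 0.51, which lies left of 29 of the 30 pan-macrophage markers.

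Other cell types differed between the libraries as well, and their part in the values of the members was not tested. Of 20 proximal tubule markers, 8 were lower by 2-fold or more and 0 higher by as much, with a median of -0.94 (5 and -0.53 with equal totals), and their summed reads went from 2093064 to 872625, a scaled fold of 0.278. Slc22a7 was the lowest at -4.42, Slc5a12 the highest at 0.41, and Kap, with the most reads of the list in the control library alone, went from 987520 to 104163. Of 15 tubular injury markers, 13 were read and 12 were at least 2-fold higher, with a median of 3.67, from 0.45 for Krt8 to 6.45 for Lcn2, and their sum went from 27358 to 508451, mostly Spp1, a scaled fold of 12.4. Of 10 fibroblast and pericyte markers, 7 were at least 2-fold higher, with a median of 1.69, from 0.48 for Pdgfrb to 2.65 for Col1a1, and their sum went from 9232 to 40322, a scaled fold of 2.91, with Col3a1 the most abundant in the library labelled CKO alone. The 5 mesangial and smooth muscle markers had a median of 0.53, from 0.025 for Myh11 to 2.37 for Tagln, the most abundant in the library labelled CKO alone, and a sum of 2330 and 6825 reads, a scaled fold of 1.95. The 10 endothelial markers, from -0.67 for Kdr to 0.59 for Vwf, had 0 past 2-fold (1 with equal totals) and a median of 0.0062, so near 0 that its sign changed with the scaling. Their sum was 16418 and 22992 reads, a scaled fold of 0.934, with Plvap the most abundant. The 5 podocyte markers had a median of -0.11, which turned to 0.30 with equal totals, with Synpo the highest at 0.28, and a sum of 8426 and 12034 reads, a scaled fold of 0.952, with Podxl the most abundant. The 10 markers of the thick limb, distal tubule and collecting duct had 0 past 2-fold (2 with equal totals, 4 in the deposited values) and a median of 0.20 (0.62 and 0.78), from -0.58 for Calb1 (0.0071 in the deposited values) to 0.79 for Aqp2, and a sum of 153903 and 284858 reads, a scaled fold of 1.23, with Umod the most abundant.

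Other leukocytes were read with few counts beside those of the macrophage markers. Dendritic cell markers, 10 of 10 read, had 8 at least 2-fold higher, a median of 1.59 and a sum of 707 and 1822 reads, a scaled fold of 1.72. With a minimum of 50 scaled reads, 4 of 6 were at least 2-fold higher. With the constants left in, 3 passed 2-fold and their median was 0.76. Flt3 was their highest, and Zbtb46, at 0.35, was their lowest and most abundant. T cell markers, 8 of 10 read, had 7 at least 2-fold higher, a median of 1.80 and a sum of 185 and 616 reads, a scaled fold of 2.22. With a minimum of 50 scaled reads, 3 of 4 were at least 2-fold higher. With the constants left in, 2 passed 2-fold and their median was 0.68. Cd5 was their highest, with 3 and 38 reads and a log2 ratio of 2.72. Its 95% interval, of the ratio without the 1 added to each value, ran from 1.42 to 5.42. With 3 control reads it is read as a lower bound only. Trac, the most abundant in the control library alone, was their lowest at -0.44, which turned to 0.26 in the deposited values. Neutrophil markers, 4 of 12 read, summed to 58 and 267 reads, a scaled fold of 3.07, with a median of 1.21, or 0.43 with the constants left in. Their highest and most abundant was Csf3r at 2.37, and their lowest was Ltf at -1.59, which turned to 0.19 with the values as deposited. B cell markers, 2 of 8 read, summed to 50 and 96 reads, a scaled fold of 1.28, with Cd79b at 0.21 and Cr2, the more abundant, at 0.45. NK cell markers, 5 of 8 read, summed to 55 and 97 reads, a scaled fold of 1.18, with a median of 0.30 over the 4 that passed the minimum, or 0.067 over the same 4 with the constants left in. These ran from Gzma at -0.88, which turned to 0.29 with the values as deposited, to Nkg7 at 1.09, and Prf1 was the most abundant in the library labelled CKO alone. Of 5 mast cell and basophil markers, Gata2 alone was read, with 486 and 1098 reads and a log2 ratio of 0.59 (1.01 with equal totals), and it is also expressed in endothelium. The summed reads of the pan-macrophage markers, 38118 in the library labelled CKO, exceeded the sum of each of these leukocyte lists.

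The genes whose pair of values was nearest to that of Csf1r, by Euclidean distance of log2 scaled reads over 2 libraries, were Sept7, Amotl2, Acsl5, Pls3 and ccdc198. The nearest was Sept7, at a distance of 0.025, with 2215 and 4749 reads. The distance of the fifth, ccdc198, was 0.072. None of these 5 genes is in the macrophage lists above, and with 2 libraries a likeness of this kind says only that the pairs of values were close.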

How the data were processed

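RNA from kidneys of control and CKO mice, 1 library in each group, had been sequenced on a NovaSeq instrument after poly(A) library preparation with a stranded kit. Alignment by the authors used STAR 2.7.3a, counting used HTSeq and normalization used DESeq2, and the labels' processing notes name the build mm10. Estimates from Cufflinks 2.2.1 were not used here. The deposited values were handled as a score, having no standard unit, and the numbers called reads are that score after subtraction of a constant. They are whole numbers that the authors call normalized counts, with a raised lowest value in each column and unequal totals.

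The lowest value minus 1 was subtracted from each column, and CKO values were scaled by the median gene ratio. Log2((CKO + 1)/(control + 1)) was computed with a pseudocount of 1 for genes that reached 10 scaled reads in either library, and the threshold was 2-fold. The pseudocount draws the log2 ratio of genes with few reads toward 0. Folds and all intervals were taken without it, so the log2 ratio of such a gene is not the estimate its interval belongs to. With 1 library per group no test was made. Ratios were given 95% Clopper-Pearson intervals, derived from the share of a gene's reads that lay in the CKO library, and the interval of a ratio of 2 genes from the Poisson errors of its 4 counts on the log scale. Both assume that the recovered numbers are counted reads, which the sources used here do not state. A constant that is wrong by 1 read would move Gpnmb most, since it had the fewest reads among the members.

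Lengths, positions and overlaps came from GENCODE M21 on GRCm38, matched by symbol for 17820 of the 20002 genes (89.1%). The length was that of the longest transcript, so levels per kilobase are approximate where another isoform prevails. Promoters came from RefSeq on GRCm38.p6.

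The members and the gene lists were chosen with earlier results of these data known. The genes named were the members, Zc3h12b, Spi1, Tyrobp, Ptprz1, Sdc1, Csf2, Csf3, Flt3, Kitl, the gene of each list with the highest ratio, the lowest ratio and the most reads summed over both libraries without scaling, and the 5 genes nearest to Csf1r, with others named as such in the text. A gene that this rule names is not reported here. Of 335 list genes, 281 were read. Alternatives were a pseudocount of 0.1 or 10, a minimum of 50 scaled reads or none, thresholds of 1.5-fold and 4-fold, equal totals, equal upper quartiles, a median log2 ratio set to 0, the values as deposited with and without scaling, and subtraction of the whole lowest value. The steps were tested on simulated data. Python 3.11.15, numpy 2.4.6, pandas 2.3.3, scipy 1.17.1 and matplotlib 3.10.9 were used.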

Additional observations from a re-analysis of the deposited data

How the results depend on the processing

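No paired analysis was possible because there was 1 library per group. The 8 members that were read were higher in the library labelled CKO under each alternative that kept them, with log2 ratios from 0.49 to 1.09 for Csf1r, 0.80 to 1.38 for Il34, 3.05 to 3.70 for Csf1, 2.18 to 2.97 for Adgre1, 3.59 to 4.16 for Lyz2, 1.76 to 2.59 for Cd68, 2.26 to 2.93 for Mrc1 and 0.71 to 2.64 for Gpnmb, which had too few reads for the minimum of 50. Over all genes, 2334 were at least 2-fold higher and 934 lower (71.4% higher). With at least 50 scaled reads 617 were lower, from fewer genes tested. The threshold of 1.5-fold gave 3801 higher and 2423 lower (61.1% higher) and that of 4-fold 749 and 166 (81.9% higher), as the thresholds bring about. Equal totals gave 3870 and 437 (89.9% higher), with a median log2 ratio of 0.44 over all genes, and Zc3h12b reversed to 0.16. The values as deposited, without scaling, gave 3574 and 131 (96.5% higher), with a median of 0.57. There Zc3h12b reversed to 0.42, while it stayed at -0.14 when the same values were scaled by the median ratio. The difference of Csf1r relative to Adgre1 was -1.67 in the values as deposited, as the constant left in each column draws genes with few reads together. Scaled by the median ratio, the values as deposited gave 1196 and 463 and a median of 1.97 over the members. For these shifts the cause was not tested further. Equal totals put 7 members past 2-fold, with Il34 added, and the values as deposited 8, with Csf1r added too. Of the other values of the 8 members and Zc3h12b, 16 moved without a change of direction and 71 stayed within their intervals. Of 270 list genes, 40 changed sign under at least 1 of 10 alternatives. Depth limits the folds of genes with few control reads such as Gpnmb, and with 1 library per group a difference between individual mice cannot be told apart from one between the groups.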
